A study of Homo sapiens with 8 samples.

Results

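EWSR1 and 9 genes of the ETS family of transcription factors (FLI1, ERG, ETV1, ETV4, ETV5, ETV6, ETS1, ETS2 and ELF1) were followed in 2 Ewing sarcoma cell lines, RD-ES and SK-N-MC. They were chosen by symbol from the deposited gene table, where they are 10 of 60332 genes with 1 row each. RNA was sequenced from 8 libraries, 2 for each of 4 groups. In each line the control group was infected with an empty lenti-dCas9-KRAB virus per the labels, whereas the paper calls these cells parental. The eKD2 group had a guide next to the GGAA repeat that enhances LOXHD1, together with dCas9-KRAB, a repressor tethered to a Cas9 that no longer cuts. Infection was at a multiplicity of 10, followed by 3 days in puromycin (1 µg/ml), and the polyclonal pools were harvested within 5 passages. The question here was at what level the genes that form the fusion, and their relatives, were transcribed in each line and whether silencing the LOXHD1 enhancer moved them.

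EWSR1 encodes an RNA-binding protein of the FET family, and FLI1 encodes an ETS transcription factor. In Ewing sarcoma a translocation joins the activating part of EWSR1 to the DNA-binding part of an ETS protein, most often FLI1 and less often ERG, ETV1, ETV4 or another relative, and the fusion is transcribed from the EWSR1 promoter. ETS proteins bind DNA around a GGAA core, and EWSR1::FLI1 also binds long GGAA repeats, where it forms new enhancers. RD-ES and SK-N-MC are both known to carry EWSR1::FLI1. The values are FPKM of whole genes, a level scaled by transcript length and by the size of each library, so reads of the fusion count toward EWSR1 or FLI1 and cannot be told apart from those of the unrearranged genes.

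The GGAA repeat next to the guide is shown first, since GGAA is the core that ETS proteins recognise. It lies in an intron of LOXHD1 as annotated, at chr18:44187979-44188054 of GRCh37 on the plus strand. The paper maps the start used in Ewing sarcoma lines to a later exon and places the repeat upstream of it. The capitals mark the longest unbroken run of the repeat, with 9 units of GGAA. ETV1 and ETS2 are shown as members of the list that differed between the lines in opposite directions. For each, 250 bases upstream of 1 RefSeq start were taken from the RefSeq table and matched to GRCh37, choosing a window with no annotated UTR or exon in it. The ETV1 window is chr7:14030328-14030577 on the minus strand, 1 of 6 windows for this gene, of which 3 hold no exon. It lies inside the annotated span of ETV1, upstream of a later start and not of the whole gene. The ETS2 window is chr21:40176857-40177106 on the plus strand, 1 of 2 windows, the other of which holds an exon. Capitals mark GGAA, or TTCC, which is GGAA on the opposite strand.
LOXHD1 enhancer repeat: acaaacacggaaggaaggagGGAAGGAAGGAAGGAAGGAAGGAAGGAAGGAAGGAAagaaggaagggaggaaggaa
ETV1 upstream window: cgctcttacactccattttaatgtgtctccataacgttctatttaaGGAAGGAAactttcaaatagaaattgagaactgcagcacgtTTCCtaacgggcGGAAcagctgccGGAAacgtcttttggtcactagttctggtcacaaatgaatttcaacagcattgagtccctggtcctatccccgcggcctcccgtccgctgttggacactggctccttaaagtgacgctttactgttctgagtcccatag
ETS2 upstream window: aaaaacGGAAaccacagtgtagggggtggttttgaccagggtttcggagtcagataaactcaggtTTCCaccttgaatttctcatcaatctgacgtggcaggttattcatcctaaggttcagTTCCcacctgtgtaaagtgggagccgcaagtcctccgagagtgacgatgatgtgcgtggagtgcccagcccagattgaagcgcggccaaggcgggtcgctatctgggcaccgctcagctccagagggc

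The ETV1 window held 5 copies of GGAA on either strand, of which 2 stood side by side as GGAAGGAA, and the ETS2 window held 3 copies and no GGAAGGAA. These counts depend on the window: the 6 ETV1 windows held 3 to 5 copies, and 4 of them had no GGAAGGAA, while the other ETS2 window held 6 copies. The ETV1 windows with GGAAGGAA overlap each other and hold the same one. The window without an exon at chr7:14031051-14031300, which lies upstream of the whole annotated gene, held 3 copies and no GGAAGGAA. Over 34788 windows of 250 bases upstream of RefSeq starts, 92.8% held at least 1 GGAA on either strand, 3.07% held GGAAGGAA and 3.41% held CCGGAAGT, an extended ETS site that contains GGAA and was in neither window. A match of letters in the reference is a description of the sequence and not of binding. RefSeq windows were at hand for 6 of the 10 genes, and those of ETS1, ETV4, ETV5 and FLI1 were not analysed here.

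Depth was estimated from the steps of low FPKM values at 7.52 to 30.2 M reads per library, with the first RD-ES eKD2 library the shallowest. LOXHD1, the gene under the targeted enhancer, was lower in eKD2, with differences of -3.46 (RD-ES) and -3.73 (SK-N-MC) on the log2(FPKM + 1) scale, with limma adjusted p = 1.1e-04 and 3.7e-05. With each line fitted alone, the RD-ES call was lost (limma adjusted p = 0.0595). All 10 listed Ewing sarcoma markers were measured above the filter, and CD99, the surface protein used in diagnosis, lay between 201 and 586 FPKM. Of 6 blood and endothelial markers, PTPRC, which encodes the leukocyte phosphatase CD45, stood at 19.2 to 22.6 FPKM in the 4 SK-N-MC libraries and at most 0.0173 FPKM in RD-ES. The summed level of the 6 markers was 19.6 to 23.2 FPKM in SK-N-MC and 0.260 to 0.334 FPKM in RD-ES, whereas HBB and CD3E were listed at 0 in every library, SPI1 and CD34 did not exceed 0.085 FPKM and CDH5 did not exceed 0.572 FPKM. PTPRC thus differed between the lines too (4.50 on the log2 scale, higher in SK-N-MC). Its relation to the line differences given below, which go in both directions, was not tested.

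EWSR1 had a far higher FPKM than FLI1 in both lines. EWSR1 (ENSG00000182944.17_3, chr22:29663998-29696515 of GRCh37, plus strand) was at 182 and 179 FPKM in the control cells of RD-ES against 134 and 163 FPKM under eKD2. Its SK-N-MC values were 173 and 170 FPKM in control against 134 and 142 FPKM under eKD2. Every eKD2 library was below every control library of its line, and the spread was widest in RD-ES eKD2. The eKD2 mean was 17.6% below control in RD-ES (180.7 ± 2.30 to 149 ± 20.5 FPKM, SD, n = 2 each) and 19.7% below in SK-N-MC (172 ± 2.00 to 138 ± 6.11 FPKM). On the log2 scale this came to -0.28 for RD-ES (standard error 0.098, 95% interval -0.52 to -0.047, limma adjusted p = 0.335), whereas SK-N-MC gave -0.31 (95% interval -0.55 to -0.076, limma adjusted p = 0.281). Neither difference passed the threshold of 0.05 after adjustment over the 15175 genes tested. In bulk RNA, fewer cells with a transcript and less of it per cell cannot be told apart. Across the alternatives the log2 value ran from -0.42 to -0.15 for RD-ES, from -0.36 to -0.27 for SK-N-MC, and the adjusted p between 0.118 and 0.651 over both lines. Without the first RD-ES eKD2 library, the RD-ES value was the -0.15.

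FLI1 (ENSG00000151702.16_2, chr11:128556430-128683162, plus strand) was at 23.9 and 22.9 FPKM in the control cells of RD-ES against 22.9 and 20.3 FPKM under eKD2. The SK-N-MC values were 25.7 and 26.9 FPKM in control against 24.2 and 23.2 FPKM under eKD2. The eKD2 values were again below control without overlap, though in RD-ES by only the gap between 22.86 and 22.89 FPKM. As a log2 difference, RD-ES gave -0.11 (95% interval -0.32 to 0.093, limma adjusted p = 0.623), whereas SK-N-MC gave -0.15 (95% interval -0.35 to 0.062, limma adjusted p = 0.525). Neither passed the test. The RD-ES value was -0.20 without the first eKD2 library and -0.031 without the second. Relative to the EWSR1 FPKM, FLI1 amounted to 13.1% and 12.8% in control RD-ES cells, against 17.0% and 12.4% under eKD2. The same ratio was 14.9% and 15.8% in control SK-N-MC cells, against 18.1% and 16.3% under eKD2. Control and eKD2 overlapped in this ratio in RD-ES, where 1 eKD2 library was high, and did not overlap in SK-N-MC. The fusion holds part of each gene while FPKM are scaled by transcript length, so this ratio is not one of transcript numbers.

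**Figure D1:**
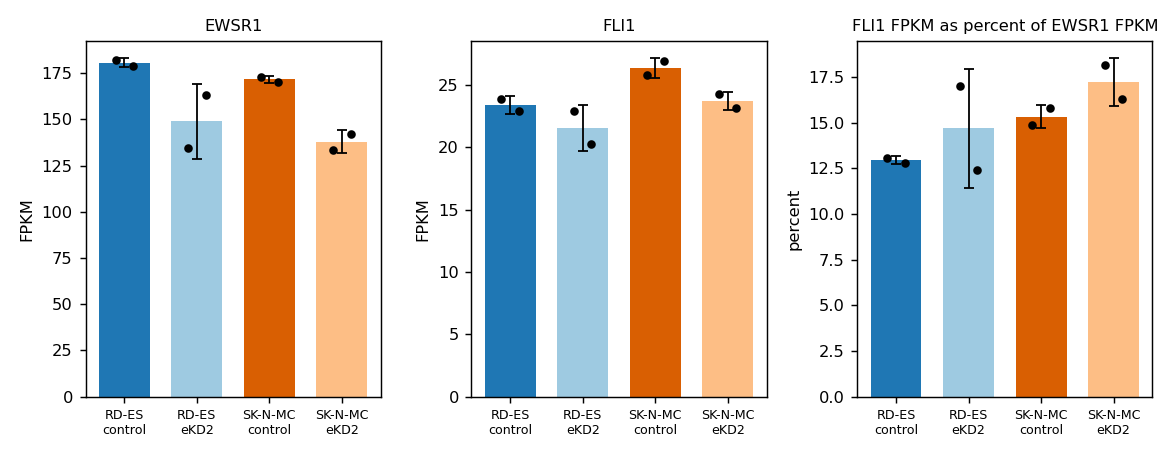
Level of EWSR1 and FLI1 (FPKM) and of FLI1 as a percent of EWSR1 in the 4 groups. Bars are means, error bars are SD (n = 2) and points are libraries. EWSR1 in eKD2 sits below control in both lines, at 134 to 163 FPKM against 170 to 182 FPKM.

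ERG and ETV4, partners in rarer fusions, were at or near 0 in both lines. ETV1, also such a partner, and its relative ETV5 were higher in SK-N-MC. ERG, the ETS gene next in use as an EWSR1 partner (ENSG00000157554.18_2, chr21:39751949-40033704, minus strand), was listed at 0 in the 4 RD-ES libraries. SK-N-MC held it at 0.0474 and 0.212 FPKM in control against 0.0572 and 0.0587 FPKM under eKD2. ETV4 (ENSG00000175832.12_3, chr17:41605212-41656988, minus strand), of the PEA3 group that also holds ETV1 and ETV5, was likewise listed at 0 in RD-ES, and stood at 0.0696 and 0.212 FPKM in the control cells of SK-N-MC against 0.173 and 0.209 FPKM under eKD2. At the estimated depths, 1 read was worth 0.0125 to 0.0275 FPKM for ERG and 0.0283 to 0.0623 FPKM for ETV4 in RD-ES. Both genes missed the filter of a mean of 1 FPKM. An exact 0 in such a table can be a failed estimate, and 4 of 82 ribosomal protein genes were also listed at 0 in at least 1 library. Fitted without the filter, among 31445 genes, neither gene passed between the lines (limma adjusted p = 0.124 for ERG and 0.0758 for ETV4).

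ETV1 (ENSG00000006468.13_2, chr7:13930854-14031050, minus strand) was at 0.164 and 0.159 FPKM in the control cells of RD-ES against 0.190 and 0.109 FPKM under eKD2. The SK-N-MC levels were 6.63 and 5.89 FPKM in control against 5.63 and 5.10 FPKM under eKD2. The SK-N-MC control mean was 38.8 times that of RD-ES, which gave a log2(FPKM + 1) difference of 2.64 (standard error 0.149, limma adjusted p = 4.9e-05) and 4.60 with a pseudocount of 0.1. ETV1 passed the filter only through SK-N-MC, where it was high. Under eKD2 the SK-N-MC libraries lay below control without overlap, by -0.19 (limma adjusted p = 0.662), or -0.12 without the first SK-N-MC control library, which did not pass, and in RD-ES the log2 difference was -0.02 with overlap.

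ETV5 (ENSG00000244405.7_3, chr3:185764103-185828107, minus strand) was at 1.06 and 1.22 FPKM in the control cells of RD-ES against 2.06 and 0.610 FPKM under eKD2. SK-N-MC had 3.90 and 7.71 FPKM in control against 6.0 and 5.30 FPKM under eKD2. The lines did not overlap, while control and eKD2 did in both, with log2 differences of 0.06 (RD-ES) and 0.02 (SK-N-MC). ETV5 was higher in SK-N-MC control by 1.61 on the log2 scale (standard error 0.379, limma adjusted p = 0.0119), and this call was lost without either RD-ES control library and without the second SK-N-MC one (limma adjusted p = 0.0547 to 0.0680). The PEA3 group of ETV1, ETV4 and ETV5 together summed to 0.719 to 2.25 FPKM in RD-ES and 10.6 to 13.8 FPKM in SK-N-MC.

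**Figure D2:**
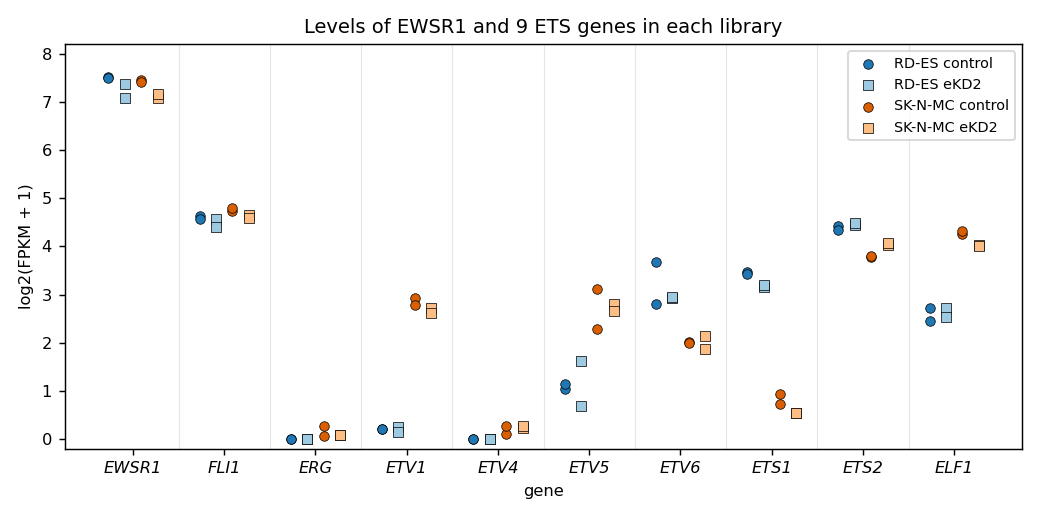
Level of the 10 genes on the log2(FPKM + 1) scale in each of the 8 libraries, with circles for control, squares for eKD2, blue for RD-ES and orange for SK-N-MC. ETV1, ETV5 and ELF1 sit higher in SK-N-MC, ETV6, ETS1 and ETS2 sit higher in RD-ES, and EWSR1 and FLI1 lie close together across the lines.

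ETS1 showed the opposite pattern to ETV1. ETS1, the founding member of the family (ENSG00000134954.14_2, chr11:128328656-128457453, minus strand), starts 99.0 kb from FLI1 and runs the other way. Its levels were 10.1 and 9.82 FPKM in the control cells of RD-ES against 7.88 and 8.17 FPKM under eKD2. The same gene in SK-N-MC was at 0.917 and 0.666 FPKM in control against 0.455 and 0.448 FPKM under eKD2. The RD-ES control mean was 12.6 times the SK-N-MC one, a log2 difference of -2.62 for SK-N-MC against RD-ES (limma adjusted p = 2.8e-05, standard error 0.125), and ETS1 passed the filter only through RD-ES. Its neighbour FLI1 differed between the lines by 0.16 (95% interval -0.043 to 0.37, limma adjusted p = 0.146), or 0.021 with each library scaled to 1 median. In eKD2 ETS1 lay below control without overlap in both lines, by -0.28 for RD-ES (limma adjusted p = 0.441) and by -0.30 for SK-N-MC (adjusted p = 0.389), and neither passed the test. The SK-N-MC value was -0.68 with a pseudocount of 0.1, where RD-ES had -0.31, and -0.20 without the first SK-N-MC control library.

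ETS2, the closest relative of ETS1 and a target of ERK phosphorylation (ENSG00000157557.11_3, chr21:40177107-40196879, plus strand), starts 143 kb from ERG. Its levels were 20.4 and 19.4 FPKM in the control cells of RD-ES against 20.7 and 21.3 FPKM under eKD2. In SK-N-MC they were 12.7 and 12.98 FPKM in control against 15.3 and 15.8 FPKM under eKD2. Among all genes tested, 24.2% (RD-ES) and 22.2% (SK-N-MC) had eKD2 libraries above control without overlap. The share that did so for both lines at once was not computed. Of the 8 listed genes tested, only ETS2 lay above control without overlap in both lines. The log2 difference was 0.08 for RD-ES (limma adjusted p = 0.696) and 0.25 for SK-N-MC (95% interval 0.081 to 0.43, limma adjusted p = 0.245), so neither passed. Scaling each library to 1 median brought the RD-ES value to 0.0083, and without the second RD-ES control library it was 0.042. Between the control groups SK-N-MC was lower, with a difference of -0.59 (limma adjusted p = 8.3e-04).

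ETV6, a repressor of the family and a frequent fusion partner in leukaemia (ENSG00000139083.10_2, chr12:11802608-12048311, plus strand), was at 11.8 and 5.98 FPKM in the control cells of RD-ES against 6.64 and 6.67 FPKM under eKD2. In SK-N-MC it was at 3.03 and 2.99 FPKM in control against 2.65 and 3.4 FPKM under eKD2. The first RD-ES control library alone was high. SK-N-MC control was lower than RD-ES control, with a difference of -1.24 (standard error 0.278, limma adjusted p = 0.0101), or -0.80 without that library (limma adjusted p = 0.0139). The call was lost without either SK-N-MC control library or with the control libraries fitted alone (limma adjusted p = 0.0546 to 0.0580). The eKD2 value in RD-ES, -0.30, turned to 0.13 without the same library, and that in SK-N-MC was -0.0013. Neither passed the test.

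ELF1, expressed in blood cells among other tissues (ENSG00000120690.15_3, chr13:41506060-41635576, minus strand), was at 5.6 and 4.47 FPKM in the control cells of RD-ES against 5.55 and 4.79 FPKM under eKD2. In SK-N-MC it was at 18.1 and 18.9 FPKM in control against 15.2 and 15.2 FPKM under eKD2. The SK-N-MC control mean was 3.67 times the RD-ES one (log2 difference 1.70, standard error 0.120, limma adjusted p = 1.1e-04). The eKD2 libraries of SK-N-MC were below control without overlap (-0.27, limma adjusted p = 0.424), whereas those of RD-ES overlapped control (0.03). The difference between these changes was -0.30 (95% interval -0.72 to 0.11, limma adjusted p = 0.511), or -0.17 without the second RD-ES control library.

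Read together, 8 of the 10 genes were tested, and ERG and ETV4 were not. None passed an adjusted p of 0.05 (limma) in RD-ES or SK-N-MC eKD2, where 0.343% and 0.323% of all genes tested did, and none for the difference of the changes, where 0.244% did (also none at an unadjusted p under 0.05). At an unadjusted p under 0.05, EWSR1 was lower in both lines and ETS2 was higher in SK-N-MC, beside 3.79% (lower) and 8.49% (higher) of all genes for RD-ES and 7.29% (lower) and 5.71% (higher) of them for SK-N-MC. Without overlap between groups, 3 of 8 were lower and 1 was higher in RD-ES eKD2, beside 15.1% and 24.2% of all genes, and 5 were lower and 1 was higher in SK-N-MC eKD2, beside 25.1% and 22.2%. The median log2 fold change of the 8 genes was -0.07 for RD-ES and -0.17 for SK-N-MC, beside 0.03 and -0.0049 over all genes tested. These counts and medians include ETV1 in RD-ES and ETS1 in SK-N-MC, where each had means under 1 FPKM. Each passed the filter only through the other line, and ETS1 is among the 5 that were lower in SK-N-MC.

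**Figure D3:**
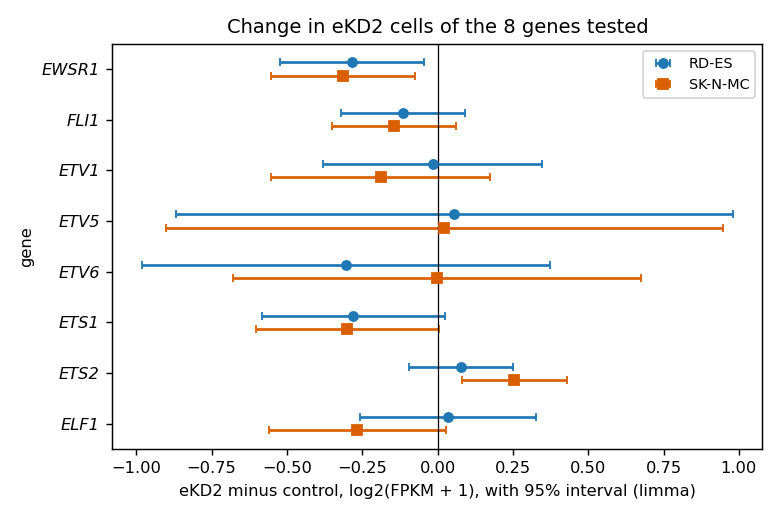
Difference between eKD2 and control on the log2(FPKM + 1) scale for the 8 genes tested, in RD-ES (circles) and SK-N-MC (squares), with 95% intervals from limma. Intervals of EWSR1 in both lines and of ETS2 in SK-N-MC leave out 0, those of ETV5 and ETV6 are the widest, and none passed an adjusted p of 0.05.

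Between the control groups 6 of the 8 genes differed, 3 higher in SK-N-MC (ETV1, ETV5 and ELF1) and 3 lower (ETV6, ETS1 and ETS2), where 57.8% of all genes tested did (31.4% higher and 26.4% lower). Without overlap 4 of 8 were higher, FLI1 among them, and 4 lower, EWSR1 among them, beside 43.2% and 36.7% of all genes. EWSR1 (-0.07, 95% interval -0.31 to 0.16, limma adjusted p = 0.545, and -0.22 with median scaling) and FLI1 did not pass. ETV1 and ETS1 each passed the filter only through the line where they were high, so the count says nothing of the list as a whole. Scaling each library to 1 median moved the median line difference of all genes from 0.06 to -0.04. Across all alternatives the difference ran from 2.57 to 4.60 for ETV1, 1.20 to 2.18 for ETV5 and 1.54 to 1.86 for ELF1. For the lower genes it ran from -1.67 to -0.80 (ETV6), -3.51 to -2.51 (ETS1) and -0.73 to -0.55 (ETS2). None of the 6 turned its direction under an alternative.

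Among 28 ETS family genes, ERF, a repressor regulated by ERK, stood highest in every library, and FLI1 ranked between 3 and 5. In RD-ES control the order by mean FPKM was ERF (61.8), ELK1 (27.2), FLI1 (23.4), ELF2 (22.8) and ETS2 (19.9), and the libraries of FLI1 and ELF2 overlapped. Lower down followed GABPA, ELK3, ELK4, ETV3, ETS1 (9.95), ELF4, ETV6 (8.89), ELF1 (5.04) and ETV5 (1.14), with GABPA, ELK3 and ELK4 overlapping one another and ETV6 overlapping both ETS1 and ELF4. In SK-N-MC control the order was ERF (132), ELF2, FLI1 (26.3), ELF1 (18.5), GABPA (17.2), ELK1 (17.1) and ETS2 (12.9). It went on with ELF4, ELK3, ELK4, ETV3, ETV1 (6.26), ETV5 (5.81) and ETV6 (3.01). Here GABPA overlapped ELK1, ETS2 overlapped ELF4, and ETV5 overlapped both ETV1 and ETV3. The FLI1 FPKM made up 8.42% to 10.2% of the sum over the family in RD-ES and 7.87% to 8.61% in SK-N-MC. Reads of the fusion, which holds only part of FLI1, count toward this gene. Its rank and share therefore describe FPKM and not transcript numbers.

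**Figure D4:**
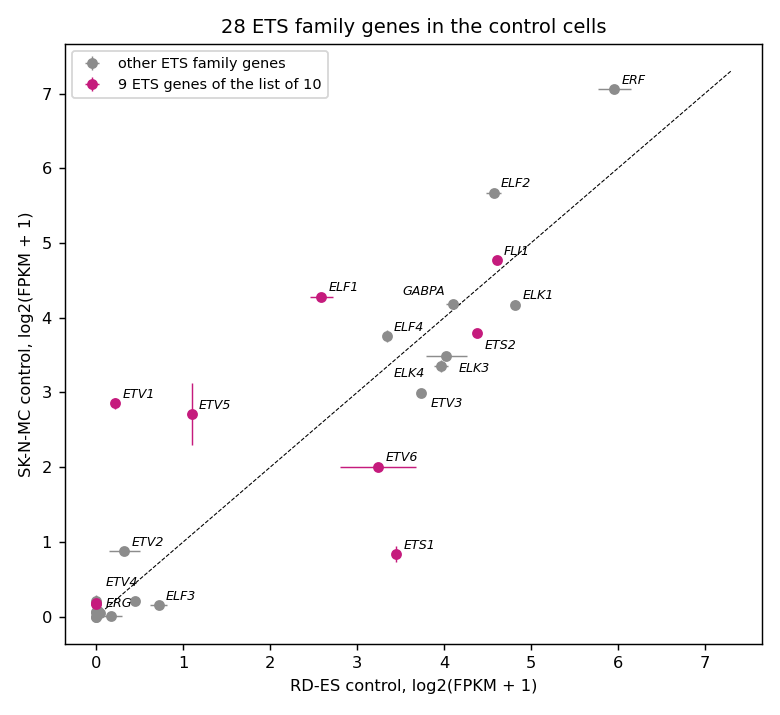
Level of 28 ETS family genes in the control libraries on the log2(FPKM + 1) scale, SK-N-MC against RD-ES, with the 9 ETS genes of the list in pink and the others in grey. Points are means of 2 libraries, bars reach to both libraries, and the dashed line marks equal levels. ETV1, ETV5 and ELF1 lie above the line, ETS1 and ETV6 lie farthest below it, and FLI1 lies near it.

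Of the 19 other ETS genes, 8 passed the filter. None of them passed an adjusted p of 0.05 (limma) in either eKD2 comparison, where 0.343% (RD-ES) and 0.323% (SK-N-MC) of all genes did. At an unadjusted p under 0.05, only ELF2 in SK-N-MC was called (lower), beside 7.29% of all genes. ELF2 was at 51.4 and 48.6 FPKM in the control cells of SK-N-MC against 40.7 and 39.3 FPKM under eKD2, a log2 difference of -0.31 (limma adjusted p = 0.305), with 0.15 in RD-ES. ERF was at 53.8 and 69.8 FPKM in the control cells of RD-ES against 33.7 and 53.6 FPKM under eKD2, and at 129.7 and 135 FPKM in those of SK-N-MC against 100.2 and 105 FPKM under eKD2. It lay below control without overlap in both lines and did not pass (limma adjusted p = 0.430 and 0.548). Between the control groups ELF2 (1.10) and ERF (1.10) were higher in SK-N-MC, and ETV3 (-0.74), ELK1 (-0.64) and ELK4 (-0.61) were lower (highest limma adjusted p = 0.00996). The shares of all genes passing between the lines were 31.4% (higher) and 26.4% (lower). ELF4 (0.41), ELK3 (-0.53) and GABPA (0.08), the DNA-binding subunit of the GABP factor, did not pass.

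TAF15, which encodes an RNA-binding protein of the FET family like that of EWSR1, is given beside it. TAF15 was at 142 and 137 FPKM in the control cells of RD-ES against 165 and 163 FPKM under eKD2, and at 246 and 236 FPKM in the control cells of SK-N-MC against 265 and 272 FPKM under eKD2. TAF15 eKD2 libraries thus lay above control in both lines, by 0.24 for RD-ES and 0.15 for SK-N-MC (adjusted p by limma, 0.209 and 0.319). This is the reverse of EWSR1, and neither passed the adjusted threshold. TAF15 was also higher in SK-N-MC control by 0.79 (limma adjusted p = 9.4e-05).

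ETS proteins work with cofactors, and some are regulated by ubiquitin ligases or by the ERK pathway. A list of 19 partners and feedback genes was therefore measured beside them. It held the GABP partners GABPB1 and GABPB2, the PEA3 repressor CIC with its cofactors ATXN1 and ATXN1L, the ubiquitin ligase genes COP1 and DET1, and ERK feedback genes such as DUSP6 and SPRED2. Of the 16 that passed the filter, none passed an adjusted p of 0.05 (limma) in either eKD2 comparison. At an unadjusted p under 0.05, SPRED2 (0.48), DET1 (0.41), EGR1 (0.41) and IER3 (0.33) were higher and FOSL1 (-0.45) was lower in RD-ES, and only IER3 (-0.48) was lower in SK-N-MC. Over all genes the shares were 8.49% (higher) and 3.79% (lower) for RD-ES and 7.29% (lower) for SK-N-MC. The median log2 fold change of the 16 was 0.18 for RD-ES and -0.09 for SK-N-MC, beside 0.03 and -0.0049 over all genes. EGR1 had a mean of only 0.554 FPKM in RD-ES control against 1.06 FPKM under eKD2. ATXN1 and SPRY1 in RD-ES, and DUSP6 and FOSL1 in SK-N-MC, also had a control mean under 1 FPKM.

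IER3, an immediate early gene induced by ERK, was at 38.2 and 43.9 FPKM in the control cells of RD-ES against 52.5 and 51.3 FPKM under eKD2. In SK-N-MC it was at 10.3 and 11.9 FPKM in control against 8.06 and 7.28 FPKM under eKD2. The libraries did not overlap in either line, above control in RD-ES and below it in SK-N-MC, and the difference of the changes was -0.81 (standard error 0.153, limma adjusted p = 0.155). FOSL1, a subunit of AP-1 downstream of ERK, was at 4.11 and 3.86 FPKM in the control cells of RD-ES against 2.77 and 2.51 FPKM under eKD2, and at 0.599 and 0.772 FPKM in the control cells of SK-N-MC against 0.345 and 0.260 FPKM under eKD2. It was below control without overlap in both lines. Between the control groups 7 of the 16 were higher in SK-N-MC and 5 were lower past the adjusted threshold, beside the 31.4% and 26.4% of all genes given above, among them SPRED2 (1.08) and IER3 (-1.80). Of these 12, ATXN1, SPRY1, EGR1, DUSP6 and FOSL1 had a mean under 1 FPKM in the line where they were low and passed the filter only through the other, so nothing is read from the count.

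**Figure D5:**
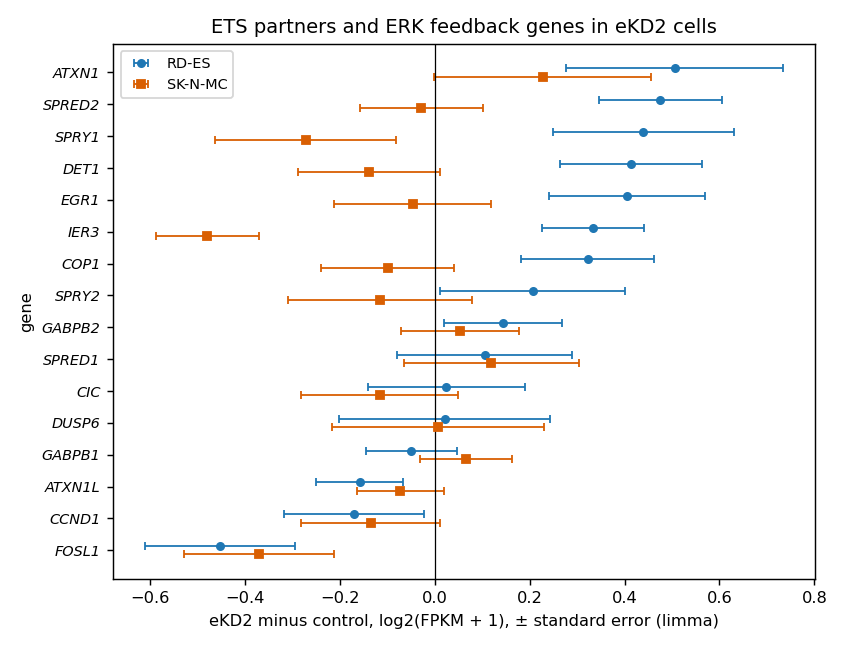
Difference between eKD2 and control on the log2(FPKM + 1) scale for 16 ETS partners and ERK feedback genes, ordered by the RD-ES value, with limma standard errors. IER3 lies at 0.33 for RD-ES (circle) and -0.48 for SK-N-MC (square), FOSL1 lies below 0 in both, and none passed an adjusted p of 0.05.

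Some reads of the genes could come from overlapping genes, because the study's kit does not mark strand. RHBDD3, on the strand opposite to EWSR1, was at 19.3 to 35.1 FPKM, and DHX8, opposite to ETV4, was at 18.6 to 36.0 FPKM while ETV4 did not exceed 0.212 FPKM. DGKG, which overlaps ETV5, did not exceed 0.446 FPKM, and the antisense genes SENCR at FLI1, ETV5-AS1 and ETS1-AS1 were listed at 0. RGS17P1, a pseudogene inside ELF1, did not exceed 0.396 FPKM. The genes whose pattern lay closest to EWSR1 over the 8 libraries, by the mean absolute difference of log2(FPKM + 1) centred on each gene's mean among 14380 genes, were AL161891.1 (0.0445), TOMM40 (0.0530) and ZNF771 (0.0531). Those closest to FLI1 were ATAD2B (0.0318), SLBP (0.0330) and HNRNPL (0.0369). Mean levels of AL161891.1 and ZNF771 were 1.56 and 2.56 FPKM, near the filter, where this scale understates changes, and TOMM40 was at 67.2 FPKM.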

How the data were processed

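RNA-seq covered 2 control and 2 eKD2 libraries of each line. The authors aligned single-end reads to hg19 (GRCh37) with STAR and computed FPKM per gene with Cuffnorm, and these deposited FPKM values were used; the study's own test ran DESeq2 on read counts, which were not used here. Values were compared as log2(FPKM + 1) with limma 3.58.1 in R 4.3.3 (lmFit, eBayes with trend, 4 groups in 1 fit), for the 15175 genes whose mean over 8 libraries reached 1 FPKM, two-sided, with Benjamini-Hochberg adjustment and a threshold of 0.05. Fold changes on this scale understate those of low genes. The fit and the depth estimate were tested on simulated data. In the depth estimate, 87.2% to 90.1% of 537 to 611 low values per library came out within 0.1 read of a whole number, with an assumed fragment of 200 bases and the longest transcript, so it is rough. The paper calls the libraries biological replicates, and neither it nor the labels say whether they came from separate cultures or infections, so p-values measure only the spread between these libraries, and an exact permutation test of 2 against 2 cannot go below p = 0.333. Replicates correlated with r = 0.937 to 0.945 across genes. Genes were placed by GENCODE annotation on GRCh37.

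The members and the other lists were chosen with earlier results of these data known. Named were the 10 members, other ETS genes whose mean reached 1 FPKM, TAF15, partner and feedback genes with the 6 largest changes in either eKD2 comparison at an unadjusted p under 0.05 (5 genes passed), overlapping genes, 3 genes nearest in pattern to EWSR1 and to FLI1, and LOXHD1. Other genes of these lists (CD99, PAX7, STEAP1, ELF3 and the partners named by role) were picked after their values were seen. PECAM1, on the marker list, was not analysed here, and 1 further listed gene is not reported here. Alternatives were another pseudocount, no filter, other scalings, other sample sets, no trend, a replicate block, leaving out each library, and genes with a transcript of at least 200 bases, the last chosen after seeing the data.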

Additional observations from a re-analysis of the deposited data

How the results depend on the processing

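The 8 genes tested gave 408 alternative values over the 4 comparisons, of which 370 kept their direction and side of the threshold, 6 lost the call and 32 turned their direction. The 6 were those of ETV5 and ETV6 between the lines. The 32 belonged to eKD2 values that did not pass the test, and the cause was not tested.

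Counts over all genes moved with the fit, the filter and the libraries left out. In RD-ES eKD2, 52 genes passed, against 79 with no filter, 11 with the replicate number as a block, 1 with the line fitted alone (SNORD100, not among the 52, named after its value was seen), and 57 to 71 without 1 library. In SK-N-MC eKD2, 49 passed, against 118 with no filter, 5 with the block, 31 among genes with a transcript of at least 200 bases, 13 with the line alone, and 48 to 76 without 1 library, where the 76 came without the first eKD2 library. For the difference of the changes, 37 passed, against 66 with no filter, 7 with the block, 18 with the longer transcripts, and 54 to 81 without 1 library, over 1.5 times 37 without any library but the second RD-ES control. Between the lines, 8777 passed, and 6926 to 7490 without 1 library.

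The replicate numbers were not shown to pair the libraries: deviations of same-numbered libraries correlated at 0.056 within RD-ES and 0.027 within SK-N-MC. The block changed no call of the 8 genes.

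Reversed values on the log2 scale in RD-ES eKD2 were, with quantile normalization, 0.062 for ETV1, -0.034 for ETV5 and -0.050 for ELF1, and, with median scaling, -0.026 for ELF1. In SK-N-MC eKD2 median scaling gave 0.0067 for ETV6. For the difference of the changes median scaling gave 0.054 for EWSR1, 0.050 for FLI1, 0.014 for ETV5 and 0.056 for ETS1, quantile normalization gave 0.045 for FLI1 and 0.036 for ETV5, and a pseudocount of 0.1 gave 0.032 for ETV5. Without 1 library the RD-ES eKD2 values ranged from -0.067 to 0.035 for ETV1, -0.41 to 0.52 for ETV5, -0.74 to 0.13 for ETV6 and -0.10 to 0.17 for ELF1. In SK-N-MC eKD2 they ranged from -0.39 to 0.44 for ETV5 and -0.14 to 0.13 for ETV6. The differences of the changes ranged from -0.17 to 0.11 for EWSR1, -0.11 to 0.053 for FLI1, -0.50 to 0.43 for ETV5, -0.13 to 0.74 for ETV6 and -0.12 to 0.081 for ETS1.

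With 2 libraries per group, a change smaller than the half-width of its 95% interval could not be called. These intervals are not adjusted for the number of genes tested, so a call needed a larger change still. EWSR1 in both lines and ETS2 in SK-N-MC exceeded that half-width and did not pass. The depth of the first RD-ES eKD2 library, 7.52 M reads, makes its low values the least certain.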

Other observations

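ELF3, an epithelial ETS gene chosen for mention after its values were seen, was at 0.531 and 0.762 FPKM in the control cells of RD-ES against 2.05 and 2.09 FPKM under eKD2. SK-N-MC had 0.115 and 0.109 FPKM in control against 0.148 and 0.567 FPKM under eKD2. Its eKD2 libraries lay above control without overlap in both lines, and its mean was under the filter of 1 FPKM. Fitted without the filter, RD-ES gave a log2 difference of 0.90 (SE 0.171, limma adjusted p = 0.199) and SK-N-MC one of 0.27 (adjusted p = 0.693), so neither passed.

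PAX7, a muscle and neural crest transcription factor, and STEAP1, a surface protein, were likewise picked from the Ewing sarcoma markers after their values were seen. PAX7 was at 29.5 and 33.0 FPKM in the control cells of RD-ES against 20.1 and 21.3 FPKM under eKD2, and at 46.9 and 47.7 FPKM in the control cells of SK-N-MC against 43.0 and 45.2 FPKM under eKD2. The log2 difference was -0.57 in RD-ES (limma adjusted p = 0.0859), whereas SK-N-MC gave -0.10 (limma adjusted p = 0.678). STEAP1 was below control in both lines, by -0.20 for RD-ES and -0.30 for SK-N-MC (adjusted p by limma, 0.311 and 0.175). The summed level of the 10 markers was 1491 to 1617 FPKM in control RD-ES cells against 1327 to 1494 FPKM under eKD2, and overlapped between the groups in both lines. None of the 10 passed an adjusted p of 0.05 (limma) in eKD2, and at an unadjusted p under 0.05 GLG1 (0.16) and PRKCB (0.26) were higher and PAX7 and STEAP1 lower in RD-ES, and STEAP1 was lower in SK-N-MC. Over all genes the shares were 8.49% (higher) and 3.79% (lower) for RD-ES and 7.29% (lower) for SK-N-MC.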
